A study of Saccharomyces cerevisiae with 18 samples.

Results

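The mRNAs of the mitochondrial ribosome were followed through purified nuclear pore complexes (NPCs) of budding yeast. They were chosen by name, as the nuclear genes called MRPL, MRPS, MRP or RSM plus a number, together with IMG1, IMG2, NAM9, MNP1 and YML6. This rule took 72 of the 7127 features counted. Of the 72, 42 encode proteins of the large subunit and 29 carry names of the small subunit. The last is MRP8, which is included by its name only, since RefSeq describes no ribosomal function for its protein. RSM22, counted with the small subunit, is annotated as a tRNA methyltransferase. The other 70 products are called mitochondrial ribosomal proteins in RefSeq, 45 of them with a bacterial counterpart and 25 specific to mitochondria.

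The data were poly(A)-selected RNA sequencing of strain W303, grown asynchronously to log phase in YPD, in 6 groups of 3 libraries. Basket-containing pores were purified on IgG, while basket-less pores and all NPCs were purified on a GFP nanobody. The PrA control was the background purification on IgG, the GFP control the background purification on the GFP nanobody, and the input was the RNA of the extract without purification. All groups share the strain, medium and frozen grinding. The basket is the fibrous structure on the nuclear side of the pore. The labels name neither the pore proteins that were tagged nor what the control strains expressed. The labels do not say whether replicates came from separate cultures, so each p-value measures the spread between libraries, which may be technical.

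The mitochondrial ribosome of yeast translates the few mRNAs of the mitochondrial genome, nearly all of them for membrane subunits of oxidative phosphorylation. Almost all of its proteins are encoded in the nucleus, so their mRNAs must leave through NPCs, are translated in the cytosol, in part at the mitochondrial surface, and the proteins are imported. Many of these mRNAs are bound in their 3′ untranslated regions by Puf3, a Pumilio-family protein that governs their decay, translation and localization.

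The sequence that the members share lies just after the stop codon. The Puf3-type motif TGTANATA (N is any base; sense strand only) stood within 200 bases after the stop codon in 70 of the 72 members, or 97.2%, against 835 of 5762 nuclear protein-coding genes tested, or 14.5%. The members without it were RSM22 and MRP8, the same genes that RefSeq does not call ribosomal proteins. The nearest site began 8 to 139 bases after the stop, with a median of 51.5 bases. Of 84 sites in all, 39 read TGTAAATA, 27 TGTATATA, 17 TGTACATA and 1 TGTAGATA. A C at the second base before the motif, a feature described for Puf3 binding, was found in 55 members, or 76.4%, against 4.36% of all nuclear protein-coding genes. The 10 sites below belong to members on which the results turn. They were read from the R64 reference (RefSeq) on the coding strand, 5′ to 3′, with the motif in capitals.
RSM27: aactcatttcaTGTACATAcaaaatcaaaa
MRPL20: aataacaatcgTGTAAATActactctataa
MRPL39: ttcatttatccTGTAAATAagtaatggata
MRP2: ggatacgcactTGTAAATAaatacatgata
MNP1: ggaatatatcaTGTAAATAtgtttaactct
MRP49: aagtttgttcaTGTATATAtcaaaaaacat
RSM23: cccatttctcaTGTACATAtaaatagataa
MRP20: cccctcacactTGTATATAcggagcaaact
MRPL3, nearer site: gtttgccatttTGTAGATAgagaactcctt
MRPL3, farther site: gaatacattctTGTACATAtatatatacac

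These windows lie on R64 at chrVII:922547-922576 on the plus strand for RSM27, chrXI:599049-599078 on the minus strand for MRPL20 and chrXIII:251207-251236 on the minus strand for MRPL39. Those of MRP2, MNP1 and MRP49 lie at chrXVI:876214-876243 on the minus strand, chrVII:375739-375768 on the plus strand and chrXI:133678-133707 on the minus strand. RSM23 has its site at chrVII:267626-267655 on the minus strand and MRP20 at chrIV:1278499-1278528 on the plus strand. The pair of MRPL3 lies at chrXIII:323054-323083 and chrXIII:323089-323118 on the plus strand, and its nearer site is the only TGTAGATA among the members. A match to the motif is a description of the letters and not of binding in these cells. An upstream heptamer, AAATTTT on either strand within 250 bases before the start codon, was found in 10 members (13.9%) and in 22.3% of all nuclear protein-coding genes.

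Library totals ran between 10592840 and 16620246 counts, and no member had fewer than 58 counts in any library. All 72 members passed the filter on low counts, as did 6429 features in all, so no member was lost. Levels are given as CPM, counts relative to the library's total after scaling with TMM factors. Replicate 3 of the PrA control stood apart from its own replicates: the chi-square of their counts was 18.7 and 20.4 times its degrees of freedom, against 1.58 to 9.54 times for the other replicate pairs.

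Together the members took 0.389 ± 0.0032% of the counts of basket-containing pores. They took 0.581 ± 0.0028% with basket-less pores and 0.542 ± 0.0047% with all NPCs (SD, n = 3 each). The background purifications held more, 0.796 ± 0.0086% in the PrA control and 0.791 ± 0.0061% in the GFP control, and the input held 0.517 ± 0.0020%. The libraries of basket-containing pores and of the PrA control did not overlap, with a ratio of 0.489, nor did basket-less pores and the GFP control, with a ratio of 0.734, nor all NPCs and the GFP control, with a ratio of 0.685. Basket-containing pores lay below the input (ratio 0.752), whereas basket-less pores (1.12) and all NPCs (1.05) lay above it. Each of these comparisons gave p = 0.1 in a two-sided exact permutation test, the smallest that 3 libraries against 3 allow. Because each value is a share of its library, less of a member's mRNA and more of all other mRNAs cannot be told apart.

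The mRNAs of cytosolic ribosomal proteins followed another order. These 138 genes, the RPL, RPS and RPP genes, took 1.67% of the counts of basket-containing pores, with 6.32% for basket-less pores and 4.75% for all NPCs. The PrA control held 12.1%, the GFP control 13.1% and the input 14.4%. In both background purifications the members' share was above that of the input, while the share of the cytosolic ribosomal protein mRNAs was below it.

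**Figure D1:**
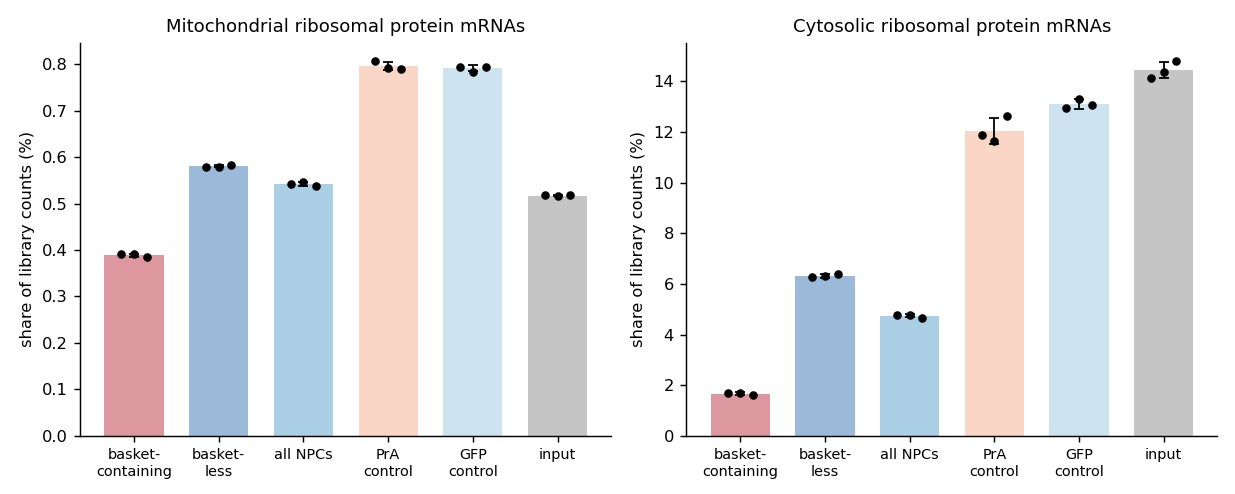
Share of library counts (%) taken by the 72 members (left) and by the 138 cytosolic ribosomal protein mRNAs (right) in each group. Bars are means, error bars SD and points the 3 libraries; the members' share is lowest in basket-containing pores (0.389%) and highest in the PrA control (0.796%) and the GFP control (0.791%).

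Member by member, the lowest of the 6 group means was that of basket-containing pores in 49 of 72 members. The highest was that of the GFP control in 35 members and of the PrA control in 17. Basket-containing pores were the highest group for 9 members, and the input for 4. The same counts were not made over all genes, so they do not set the members apart from other mRNAs. The level of the median member was 50.3 CPM for basket-containing pores, 70.5 CPM for basket-less pores and 64.2 CPM for all NPCs. It was 94.4 CPM for the PrA control, 92.9 CPM for the GFP control and 64.7 CPM for the input. Per kilobase of coding sequence the members spread widely in the input, with a level of 33.9 CPM per kb for RSM22, a median of 100 CPM per kb and 467 CPM per kb for MRP8. In basket-containing pores the lowest level per length was 15.8 CPM per kb, for MRP35, the counterpart of bacterial bL35, and the highest 559 CPM per kb, for MRP8.

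Basket-containing pores were compared with the PrA control, which shares their matrix. Most member mRNAs were lower in the pores, across both subunits, by up to 3.0 on the log2 scale. A minority was higher, among them RSM23, RSM22 and MRP8. Of the 72 members, 57 were lower and 11 higher at an adjusted p below 0.05 in edgeR's quasi-likelihood test (Benjamini-Hochberg over all genes tested). Over all genes, 46.5% were lower and 43.8% higher. The members' median log2 fold change was -0.90, against -0.07 for all genes. Reductions of more than 2-fold were seen in 35 members, or 48.6%, and in 28.6% of all genes.

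RSM27, a small-subunit protein specific to mitochondria (mS33), had 10.1, 10.3 and 11.9 CPM in basket-containing pores, against 76.0, 76.1 and 107 CPM in the PrA control. Every pore library was below every control library. Its log2 fold change was -3.0 ± 0.14 (SE; adjusted p = 2.49e-14, edgeR). MRPL20, a large-subunit protein with no bacterial counterpart (mL58), had 13, 10.4 and 11.4 CPM in basket-containing pores, against 90.1, 84.7 and 90.1 CPM in the PrA control. The gap between the groups was again far wider than the spread within them, and the log2 fold change was -2.91 ± 0.08 (adjusted p = 2.25e-21, edgeR). MRPL39, the counterpart of bacterial bL33 and the shortest member, fell by 2.58 on the log2 scale, and MRPS16, that of bS16, fell by 2.57.

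In the opposite direction, RSM23 had 125, 125 and 140 CPM in basket-containing pores, against 64, 66.5 and 59.3 CPM in the PrA control. RSM23 encodes mS29, the yeast relative of the human GTP-binding protein DAP3. The pore libraries all lay above the control libraries, with a log2 fold change of 1.03 ± 0.05 (adjusted p = 8.79e-16, edgeR). RSM22 was at 134, 134 and 136 CPM in basket-containing pores, against 78.3, 87.5 and 82.0 CPM in the PrA control (0.70 ± 0.05). MRP8 reached 368, 363 and 375 CPM in basket-containing pores, against 205, 180.7 and 180.7 CPM in the PrA control (0.96 ± 0.05). For both, the groups did not overlap. RSM24, another mitochondria-specific small-subunit protein (mS35), rose by 0.52 ± 0.05.

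Other members of known role in this comparison were spread between these ends. MNP1, the stalk protein bL12 that receives translation factors, had a log2 fold change of -1.90 ± 0.06, IMG1 (bL19) -1.97 ± 0.07 and IMG2 (mL49) -1.46 ± 0.06. MRPS12, the decoding-centre protein uS12, stood at -1.36 ± 0.06, NAM9 (uS4), first found as a suppressor of nonsense mutations in mitochondrial genes, at -1.28 ± 0.05, and MRPL3 (mL44) at -1.06 ± 0.06. MRPL10 (uL15) at -0.58 ± 0.06 and MRP51 (bS1), known for its part in the translation of mitochondrial mRNAs, at -0.51 ± 0.04 were reduced less. MRP20 (uL23), which lines the rim of the exit tunnel, rose by 0.38 ± 0.05, a call that upper-quartile scaling did not make (0.03, adjusted p = 0.513 in edgeR). YML6 (uL4) was not called, at -0.09 ± 0.09 (adjusted p = 0.342 in edgeR), but was called lower without PrA control replicate 3 (-0.20) and with upper-quartile factors (-0.44). MRP49, MRPL25 and MRPL35 were not called, but with upper-quartile factors they were called lower, at -0.37, -0.38 and -0.31. By subunit, 34 of 42 large-subunit members were lower and 4 higher (median -0.96), and 23 of 29 small-subunit members were lower and 6 higher (median -0.95).

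**Figure D2:**
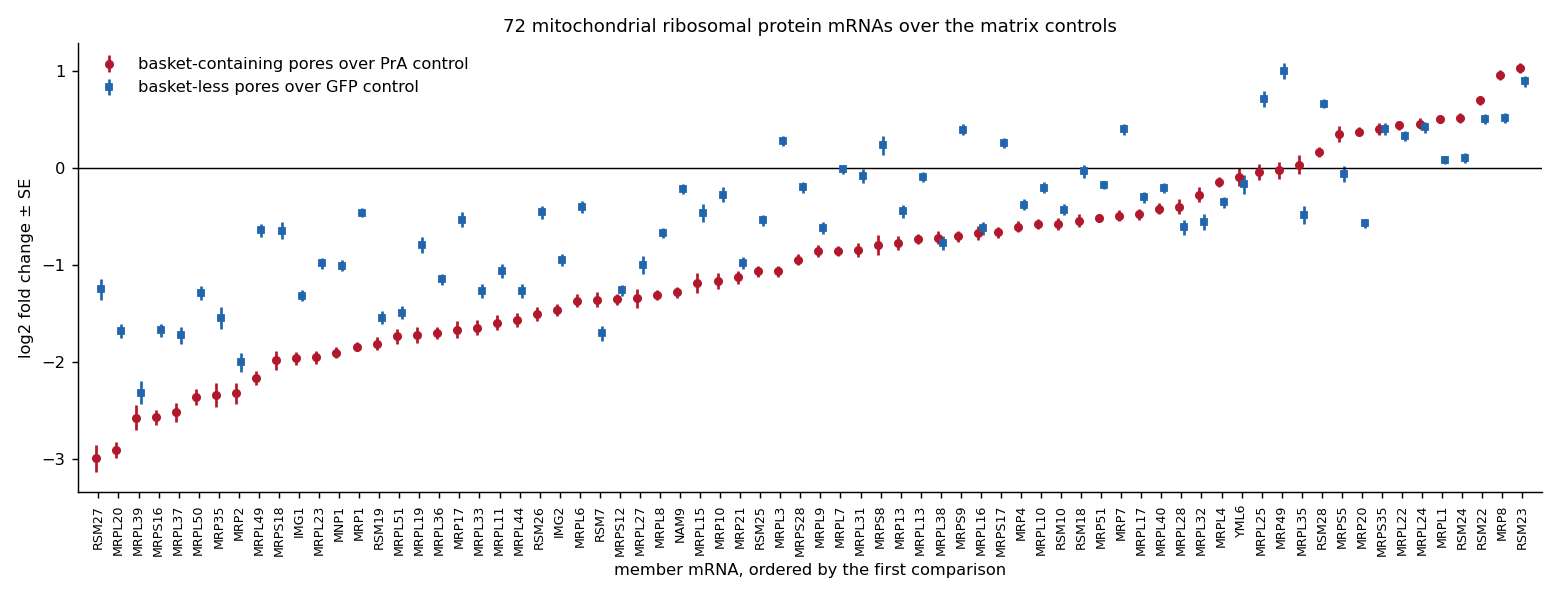
Log2 fold change (± SE) of each of the 72 members in basket-containing pores over the PrA control (red circles) and for basket-less pores relative to the GFP control (blue squares), ordered by the first. Most circles lie below 0 (median -0.90), fewer and smaller reductions are seen in the squares (median -0.46), and RSM23, RSM22 and MRP8 lie above 0 in both.

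Basket-less pores were compared with the GFP control in the same way. Again most members were lower, by smaller amounts, and the extremes were partly other genes. Of the 72 members, 50 were lower and 14 higher, where 35.5% of all genes were lower and 47.1% higher. Their median log2 fold change was -0.46, against 0.11 for all genes, and 18 members (25%) were lower by more than 2-fold, against 11.3% of all genes. Large-subunit members were lower in 31 and higher in 6 of 42 cases (median -0.62), and small-subunit members in 19 and 7 of 29 (median -0.38).

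MRPL39 had 12.3, 11.6 and 11.1 CPM in basket-less pores, against 59.5, 55.6 and 59.7 CPM in the GFP control. Its log2 fold change of -2.32 ± 0.12 was the lowest among the members (adjusted p = 4.09e-15, edgeR). MRP2, the counterpart of uS14, had 12.8, 14.1 and 12.8 CPM in basket-less pores, against 53.4, 57.8 and 48.5 CPM in the GFP control (-2.00 ± 0.10). No library of one group reached the other for either gene. MRPL37 (mL54) fell by 1.73 and RSM7 (uS7, which binds the head of the small subunit) fell by 1.71.

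MRP49, a fungal large-subunit protein (mL61), had 37.6, 36.5 and 40.3 CPM in basket-less pores, against 19.1, 19.1 and 18.9 CPM in the GFP control. Its log2 fold change was 1.00 ± 0.08 (adjusted p = 4.49e-11, edgeR), with no overlap between groups. The same mRNA stood at 25.1, 22.7 and 27.4 CPM in basket-containing pores and at 27.4, 26.4 and 22.3 CPM in the PrA control, values that overlap. RSM23 rose by 0.90 ± 0.05, MRPL25 (mL59) by 0.71 ± 0.08 and RSM28 (mS46) by 0.67 ± 0.05 in basket-less pores. RSM22 (0.51 ± 0.05) and MRP8 (0.52 ± 0.05) were higher here too.

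Of the members of known role, IMG1 had a log2 fold change of -1.32 ± 0.06, MRPS12 -1.26 ± 0.06, MNP1 -1.01 ± 0.05 and IMG2 -0.95 ± 0.06 in basket-less pores. MRP20 was lower, at -0.57 ± 0.05. NAM9 (-0.21 ± 0.05), MRPL10 (-0.20 ± 0.05) and MRP51 (-0.18 ± 0.04) were reduced slightly, YML6 (-0.17 ± 0.10) was not called, though DESeq2's test called it (-0.28), and MRPL3 was higher at 0.28 ± 0.05. The call for MRPL3 was lost with upper-quartile scaling, which gave 0.01 (adjusted p = 0.832 in edgeR).

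The comparisons of basket-containing and basket-less pores with their own controls share no library. In both, 48 members were lower, or 66.7% of the members against 30.5% of all genes. The 7 members higher in both were MRP8, MRPL22, MRPL24, MRPS35, RSM22, RSM23 and RSM28, or 9.72% against 36.6% of all genes. With upper-quartile factors 54 members were lower in both, or 75% against 42.2% of all genes. With these factors 3 members, MRP8, RSM22 and RSM23, were higher in both, or 4.17% against 26.9% of all genes. RSM28 was then lower on basket-containing pores (-0.17). MRP20 was higher on basket-containing and lower on basket-less pores, or 1.39% of the members against 2.29% of all genes. MRP7, MRPL3, MRPS8, MRPS9 and MRPS17 were lower on basket-containing and higher on basket-less pores, or 6.94% of the members against 7.56% of all genes. Of these, MRPS8 was not called higher with DESeq2 size factors, and MRP7 and MRPS9 alone were called higher with upper-quartile factors.

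All NPCs over the GFP control gave 56 members lower and 14 higher, where 37.6% of all genes were lower and 46.9% higher. The median was -0.64, against 0.11 for all genes. This comparison shares its control libraries with that of basket-less pores. MRPL39 (-2.68 ± 0.12), MRPL20 (-2.03 ± 0.07), MRP2 (-2.02 ± 0.10) and RSM7 (-1.99 ± 0.08) were at the low end. RSM23 (1.01 ± 0.05), MRP49 (0.91 ± 0.08), RSM28 (0.75 ± 0.05) and RSM22 (0.64 ± 0.05) were at the high end. Among the members of known role IMG1 stood at -1.65, MRPS12 at -1.64, MNP1 at -1.29, IMG2 at -1.06, MRP20 at -0.63, NAM9 at -0.40, MRPL10 at -0.29, YML6 at -0.27, MRP51 at -0.26, MRPL3 at -0.13 and MRP8 at 0.47, each of them called. The calls of MRPL3 and YML6 here did not outlast the removal of single libraries: MRPL3 lost its call without all NPCs replicate 1 (-0.13) or 2 (-0.11) and without GFP control replicate 2 (-0.10) or 3 (-0.12), and YML6 without GFP control replicate 1 (-0.19). Only MRPS5 and MRPS8 were not called.

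Against the input the picture differed between the pore types. In basket-containing pores 50 members were lower and 17 higher (all genes: 45.5% and 43.9%), with a median log2 fold change of -0.50 against -0.05 for all genes. Upper-quartile scaling gave 58 members lower and 8 higher, but the shares of all genes given here are those with TMM factors and shift with the scaling too. MRP2 was at 7.57, 8.67 and 8.70 CPM in basket-containing pores and at 38.1, 38.4 and 40.5 CPM in the input, and its log2 fold change was -2.24 ± 0.11. RSM27 (-2.06 ± 0.14), MRP35 (-2.03 ± 0.13) and MRPL20 (-2.02 ± 0.09) followed. At the other end MRP20 had 213, 219 and 197 CPM in basket-containing pores, against 76.1, 74.4 and 72.9 CPM in the input. This was the highest ratio of any member in that comparison, 1.49 ± 0.05 on the log2 scale (adjusted p = 1.94e-19, edgeR), followed by RSM22 (1.07 ± 0.05), RSM24 (0.85 ± 0.05) and MRPL4 (uL29, 0.81 ± 0.06).

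Basket-less pores held the members at about the level of the input. In that comparison 22 members were lower and 33 higher (all genes: 36.1% and 44%), and the median was 0.09, against 0.08 for all genes. The split depended on scaling, with 25 lower and 22 higher with DESeq2 size factors and 37 lower and 15 higher with upper-quartile factors. In this paragraph the shares of all genes are those with TMM factors, and they shift with the scaling too. All NPCs gave 28 lower and 23 higher (all genes: 37.1% and 44.6%) and a median of -0.04, against 0.08 for all genes; DESeq2 size factors gave 37 lower and 17 higher, upper-quartile factors 48 and 9. MRP2 was lowest in both, at -1.56 ± 0.10 (basket-less pores) and -1.57 ± 0.10 (all NPCs), followed by MRP35 (-1.21 and -1.40) and MRPL20 (-0.82 and -1.17). RSM26 (-0.67) in basket-less pores and MNP1 (-0.95) in all NPCs came next. The highest members in basket-less pores were MRPL8 (bL17, 0.85 ± 0.06), MRP20 (0.74 ± 0.05), MRP4 (uS2, 0.66 ± 0.06) and RSM25 (mS23, 0.63 ± 0.06), and in all NPCs MRP20 (0.69), RSM22 (0.68), MRPL8 (0.60) and RSM23 (0.60).

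The background purifications themselves were rich in member mRNAs. In the PrA control 55 members were higher and 8 lower than in the input, and in the GFP control 51 were higher and 8 lower. Over all genes 37.5% were higher and 41.2% lower in the PrA control, and 37.2% and 42.4% in the GFP control. The members' medians were 0.42 and 0.47, against -0.03 and -0.05 for all genes; both comparisons share the input. MRPL39 had 46.4, 41.6 and 56.6 CPM in the PrA control and 59.5, 55.6 and 59.7 CPM in the GFP control, against 13.6, 14.5 and 17.8 CPM in the input. It rose by 1.65 ± 0.12 in the PrA control and by 1.93 ± 0.12 in the GFP control. MRPS16 (1.5 and 1.85) and IMG1 (1.49 and 1.83) were near it in both, with MRPL51 (mL43) at 1.48 in the PrA control and RSM7 at 1.67 in the GFP control. MRP8 was the lowest member in both, at -0.70 ± 0.05 and -0.84 ± 0.05. MRPL25 (-0.53 and -0.75) and MRPL24 (bL28, -0.31 and -0.45) were lower in both. RSM23 (-0.27) completed the low end in the PrA control, as did MRP49 (-0.61) in the GFP control. RSM23, MRPL24 and MRP8 were thus below the input in the PrA control and above the PrA control in basket-containing pores. Both comparisons use the PrA control libraries, so they are not independent. In the input, MRP8 had 296, 305 and 323 CPM and RSM23 75.4, 76.1 and 78.3 CPM. Without input replicate 2, 5 rather than 8 members were lower in the PrA control than in the input.

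**Figure D3:**
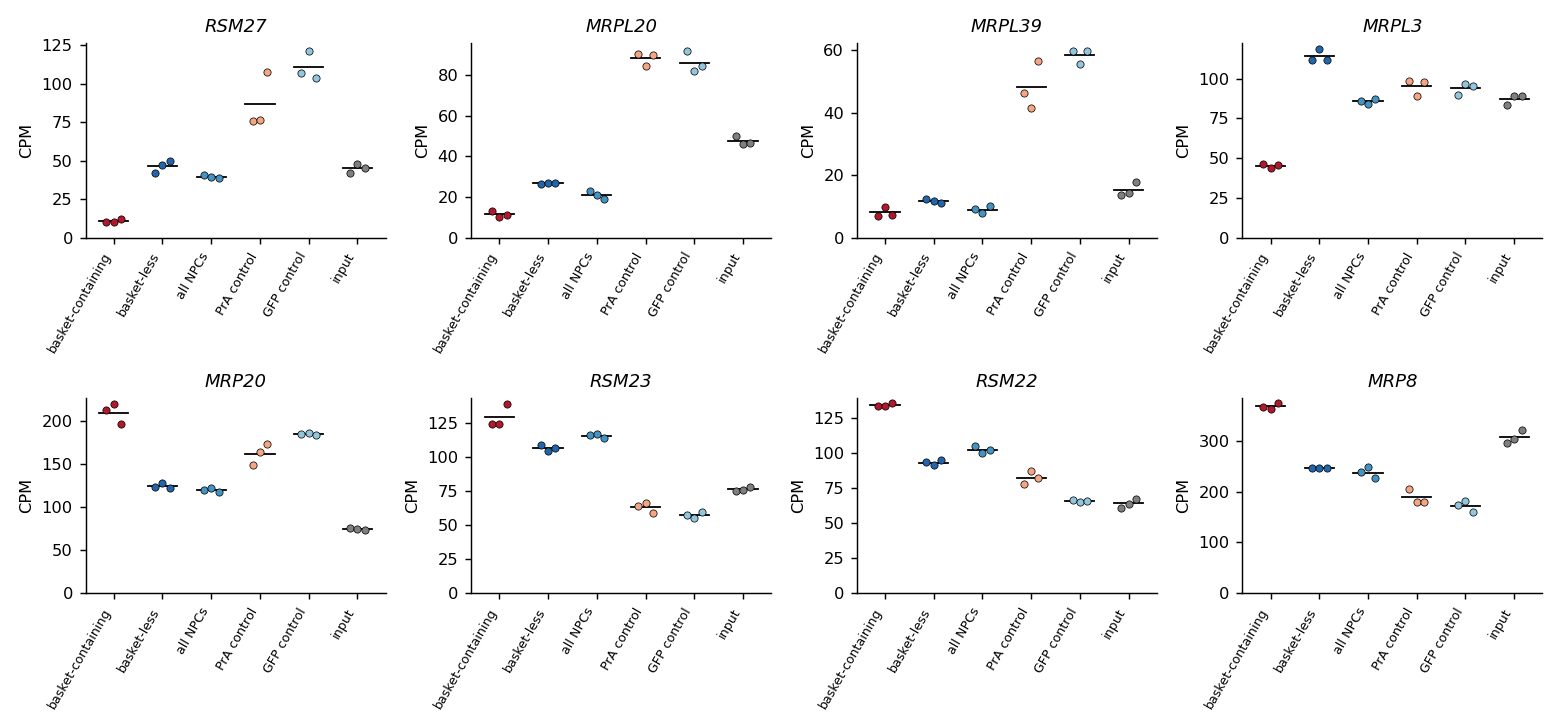
CPM of 8 members in each library, by group; points are libraries and lines group means. RSM27, MRPL20 and MRPL39 are lowest in basket-containing pores, MRPL3 is low in that group only, MRP20 and RSM22 are highest there, and RSM23 and MRP8 are higher in basket-containing pores than in either control.

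The pore types were compared directly. Basket-containing pores held less of most member mRNAs than basket-less pores, with 55 members lower and 11 higher, where 42.2% of all genes were lower and 40.3% higher. The median log2 fold change was -0.51, against -0.04 for all genes. Members with 213 to 477, 486 to 810 and 837 to 1887 coding bases had medians of -0.53, -0.68 and -0.24. All genes of those lengths had -0.51, -0.60 and -0.04. The part of length in the gap to all genes was not tested. Without basket-containing replicate 3 the members' median was -0.32, with 47 lower and 14 higher, and the median of all genes was 0.09. The matrices differ between these pore types, so matrix and pore type cannot be told apart in this comparison.

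RSM27 had 10.1, 10.3 and 11.9 CPM in basket-containing pores, against 42.1, 47.1 and 49.8 CPM in basket-less pores (-2.11 ± 0.14; adjusted p = 3.95e-11, edgeR). MRPS18, the counterpart of uS11, had 50.5, 50.2 and 48.7 CPM in basket-containing pores, against 148, 149 and 145 CPM in basket-less pores (-1.57 ± 0.10). Their groups were far apart. MRPL49 (bL21, -1.44 ± 0.08) and MRP1 (mS43, -1.36 ± 0.05), a protein of the superoxide dismutase fold, followed. MRP20 had 213, 219 and 197 CPM in basket-containing pores, against 123, 127 and 122 CPM in basket-less pores (0.75 ± 0.05; adjusted p = 3.47e-13, edgeR). MRP8 (0.58), RSM22 (0.53) and MRPL1 (uL1, the mobile stalk of the exit site, 0.45) were also higher.

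Basket-less pores and all NPCs, purified on the same matrix, differed little. Of the 72 members, 29 stood higher in basket-less pores and 1 lower (all genes: 20.3% and 22.8%), and none differed by more than 2-fold. Without single libraries of these groups, 22 to 25 members were higher. The median was 0.14, against 0.00 for all genes. Members with 213 to 477, 486 to 810 and 837 to 1887 coding bases had medians of 0.16, 0.20 and 0.09. All genes of those lengths had 0.17, 0.15 and 0.02. MRPL3 had 111, 119 and 111 CPM in basket-less pores, against 85.9, 84.3 and 87.5 CPM in all NPCs, a log2 fold change of 0.41 ± 0.05 (adjusted p = 8.17e-07, edgeR). MRPS12 (0.38), MRPL20 (0.35) and IMG1 (0.34) followed. RSM22 was the member that was lower, at -0.14 ± 0.05 (adjusted p = 0.0276, edgeR). That call was lost without basket-less replicate 1 (-0.14) or 2 (-0.12), without all NPCs replicate 1 (-0.12) or 3 (-0.14), and with upper-quartile factors (-0.12).

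To compare the pore types relative to their own matrix controls, the log2 fold change of basket-less pores over the GFP control was subtracted from that of basket-containing pores over the PrA control, within the same fit. The difference was negative for 48 members and positive for 10 (all genes: 39.5% and 36.6%), with a median of -0.50 against -0.03 for all genes. Members with 213 to 477, 486 to 810 and 837 to 1887 coding bases had medians of -0.63, -0.60 and -0.22. All genes of those lengths had -0.43, -0.54 and -0.06. Among members the difference was lowest for RSM27 (-1.75 ± 0.18), MRPL49 (-1.52 ± 0.10), MRP1 (-1.38 ± 0.07) and MRPL3 (-1.34 ± 0.08). MRPL3 had 46.2, 44.2 and 46.0 CPM in basket-containing pores, 111, 119 and 111 CPM in basket-less pores, 98.5, 88.9 and 98.1 CPM in the PrA control and 89.6, 96.8 and 95.2 CPM in the GFP control. Its control libraries overlapped, every library of basket-containing pores lay below them and every library of basket-less pores above them. The difference was highest for MRP20 (0.95 ± 0.07), MRPL35 (mL38, 0.52 ± 0.14), MRP8 (0.44 ± 0.07) and MRPL1 (0.42 ± 0.06).

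The members' response varied with the length of the gene. Members have a median coding length of 679.5 bases, against 1209 bases over the genes tested. Across members, the log2 fold change correlated with coding length with a Spearman coefficient of 0.60 in basket-containing pores over the PrA control and 0.61 for basket-less pores relative to the GFP control. Across all 5773 tested genes with a coding length, the coefficients were 0.57 and 0.53. These are descriptions over genes that share libraries, with no test. Ordered by length, the 24 shortest members (213 to 477 bases) had a median of -1.61 in basket-containing pores over the PrA control, with 22 lower and none higher. The 24 of middle length (486 to 810 bases) had -1.25, and the 24 longest (837 to 1887 bases) had -0.45, with 14 lower and 8 higher.

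All tested genes of these length ranges had medians of -1.36, -1.05 and 0.04 in that comparison. Of them, 74.1%, 74.8% and 43.1% were lower and 14.1%, 16.6% and 45.6% higher. With basket-less pores over their control the members' medians were -1.13, -0.62 and -0.11 in the same ranges, and those of all genes -0.76, -0.42 and 0.22. In the GFP control over the input the order was turned round. The shortest members had a median of 1.00, the middle 0.49 and the longest 0.21, against 0.23, 0.07 and -0.11 for all genes of those lengths. In each range the members' median was below that of all genes in both pore types over their controls, and above it in the GFP control over the input. The GFP control libraries enter the basket-less comparison and the comparison with the input on opposite sides. Opposite signs and orders in these are therefore partly built in. Over the input the pores gave another order. Basket-containing pores over the input had member medians of -0.57, -0.61 and -0.03 from short to long, against -1.01, -0.93 and 0.02 for all genes of those lengths. Basket-less pores over the input had 0.02, -0.18 and 0.34, against -0.53, -0.29 and 0.12. The members' median thus lay above that of all genes in each range for basket-less pores, and in the shortest and middle ranges for basket-containing pores. These differences between members and all genes were not tested. Of the 24 shortest members, 3 were higher for basket-less pores relative to the GFP control, near the 12.3% of all genes of that length. They were MRP49 (414 bases), MRPL25 (474 bases) and MRPS8 (468 bases), the last at 0.23 ± 0.10 and not called with DESeq2 size factors (0.12).

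**Figure D4:**
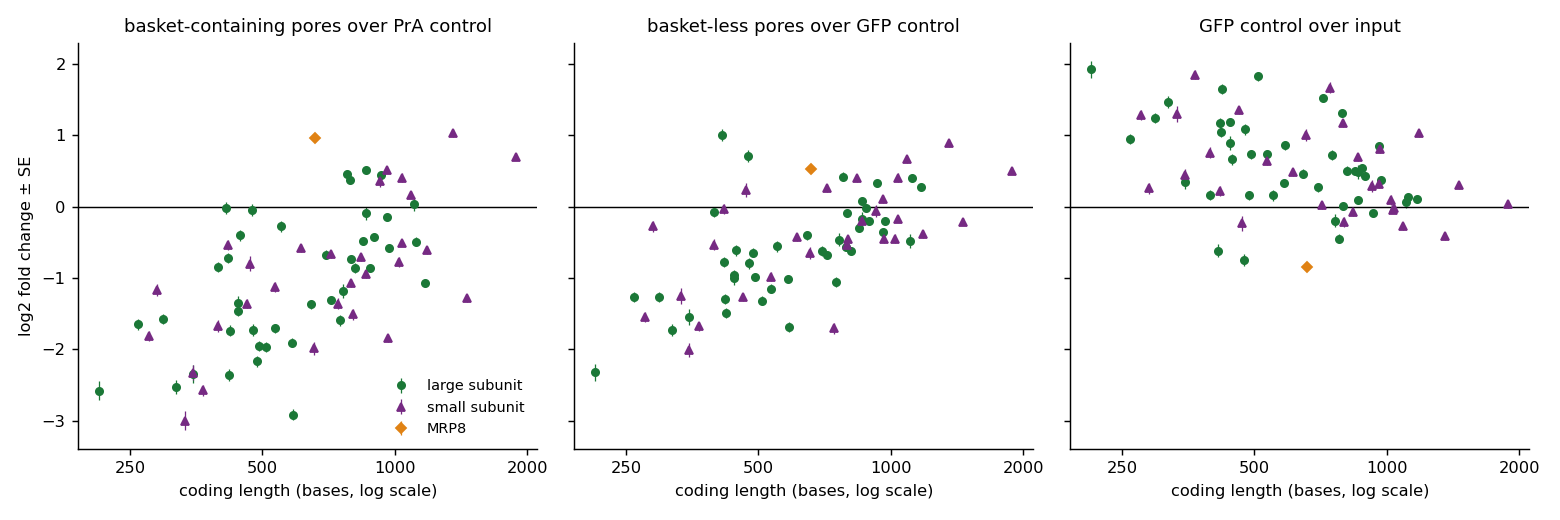
Log2 fold change (± SE) of each member against its coding length in bases (log axis), for basket-containing pores over the PrA control, basket-less pores over the GFP control and the GFP control over the input. The 24 shortest members have the lowest median in the pores (-1.61 and -1.13) and the highest in the control (1.00), while the short members MRP49 and MRPL25 lie high in basket-less pores (1.00 and 0.71) and low in the control (-0.61 and -0.75). The basket-less and GFP control panels share the GFP control libraries, so their values are not independent.

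Members with a bacterial counterpart and members specific to mitochondria had medians of -0.95 and -1.06 in basket-containing pores over the PrA control, and -0.57 and -0.46 for basket-less pores relative to the GFP control. The 70 members with a Puf3-type site had medians of -1.01 and -0.47 in these comparisons. Of these, 57 and 50 were lower (all genes: 46.5% and 35.5%) and 9 and 12 higher (43.8% and 47.1%). RSM22 and MRP8, the only members without a site, were higher in both, but are too few for a comparison by motif. Over all nuclear protein-coding genes, the medians were -0.17 and 0.02 for the 835 genes with the motif, the 70 members among them, and 0.02 and 0.17 for the 4927 without.

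The rest of the mitochondrial translation pathway was described from lists set by function. Their counts stand against those of all genes. In basket-containing pores over the PrA control 43.8% of all genes were higher and 46.5% lower (median -0.07). For basket-less pores relative to the GFP control 47.1% were higher and 35.5% lower (median 0.11). Upper-quartile counts below stand against other numbers. With those factors 2296 of 6429 genes were higher and 3546 lower in basket-containing pores (median -0.41). In basket-less pores 2203 were higher and 3125 lower (median -0.16). Mitochondrial ribosomal proteins with other names were lower in 9 of 9 cases in basket-containing pores over the PrA control (median -1.23) and in 7 of 9 for basket-less pores relative to the GFP control (median -0.76). Among them SWS2 (uS13) stood at -2.36 and -1.07, and QRI5 at -2.02 and -1.78. All 9 carry the 3′ motif.

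Lists of factors that work on this ribosome had higher medians. In basket-containing pores 7 of 9 translation factors were higher and 1 lower (median 1.40; with upper-quartile factors 5 higher and 3 lower, median 1.06), with 7 higher and 2 lower for basket-less pores (median 0.69), each over its own control. IFM1, the initiation factor, stood at 2.56 and 1.24 and MEF1, an elongation factor, at 1.41 and 0.63, while MRF1, the release factor, stood at -0.30 and -0.22. Of 12 mitochondrial aminoacyl-tRNA synthetases 8 were higher and 3 lower in basket-containing pores (median 0.52), and 6 higher and 3 lower on basket-less ones (median 0.14; with upper-quartile factors 2 higher and 6 lower, median -0.13). NAM2, the leucyl enzyme, stood at 1.65 in basket-containing pores and MST1, the threonyl enzyme, at -1.34. All 12 carry the motif, as do 7 of 9 translation factors. Assembly factors of the mitochondrial ribosome gave 5 higher and 3 lower of 9 (median 0.34; with upper-quartile factors 4 and 4, median -0.0021) in basket-containing pores, and 3 higher and 3 lower (median -0.07; with upper-quartile factors 2 and 6, median -0.34) in basket-less pores. In basket-less pores the 6 of 12 synthetases that were higher lie near the share of all genes, and the 3 of 9 assembly factors below it. These lists hold longer genes, with median coding lengths of 1314 bases for translation factors, 1669.5 for synthetases and 1557 for assembly factors. Lists that were mostly lower, above or below, hold shorter genes. Their medians were 432 bases for ribosomal proteins with other names, 552 for protein import, 462 for oxidative phosphorylation and 433.5 for cytosolic ribosomal proteins. The part of length in these differences was not tested.

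Activators of single mitochondrial mRNAs gave 9 higher and 5 lower of 15 in each pore type over its control (medians 0.54 and 0.45). With upper-quartile factors these became 8 higher and 7 lower (median 0.20) in basket-containing pores and 6 and 6 (median 0.18) in basket-less pores. PET494, needed for translation of the mitochondrial COX3 mRNA, stood at 1.69 and 0.97. PET54, which acts on the same mRNA, stood at -2.43 and -0.99. Protein import gave 17 lower and 5 higher of 23 in basket-containing pores (median -1.57) and 15 lower and 4 higher on basket-less pores (median -0.78). Here TIM10, a small chaperone of the intermembrane space, stood at -2.76 and -1.30 and TOM70, an outer-membrane receptor, at 1.18 and 0.62. Nuclear-encoded oxidative phosphorylation gave 29 of 35 lower in each, with 6 and 2 higher (medians -1.23 and -0.73), and with upper-quartile factors 2 and 1 higher. Only 4 of these 35, or 11.4%, carry the motif.

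Cytosolic ribosomal protein mRNAs, with 6 of 138 carrying the motif, were lower in 137 of 138 cases in basket-containing pores over the PrA control (median -2.54) and in 132 of 138 for basket-less pores relative to the GFP control (median -1.10). Over the input, their medians were -0.36 (PrA control) and -0.19 (GFP control), where those of the members were 0.42 and 0.47. The difference between these lists was not tested.

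**Figure D5:**
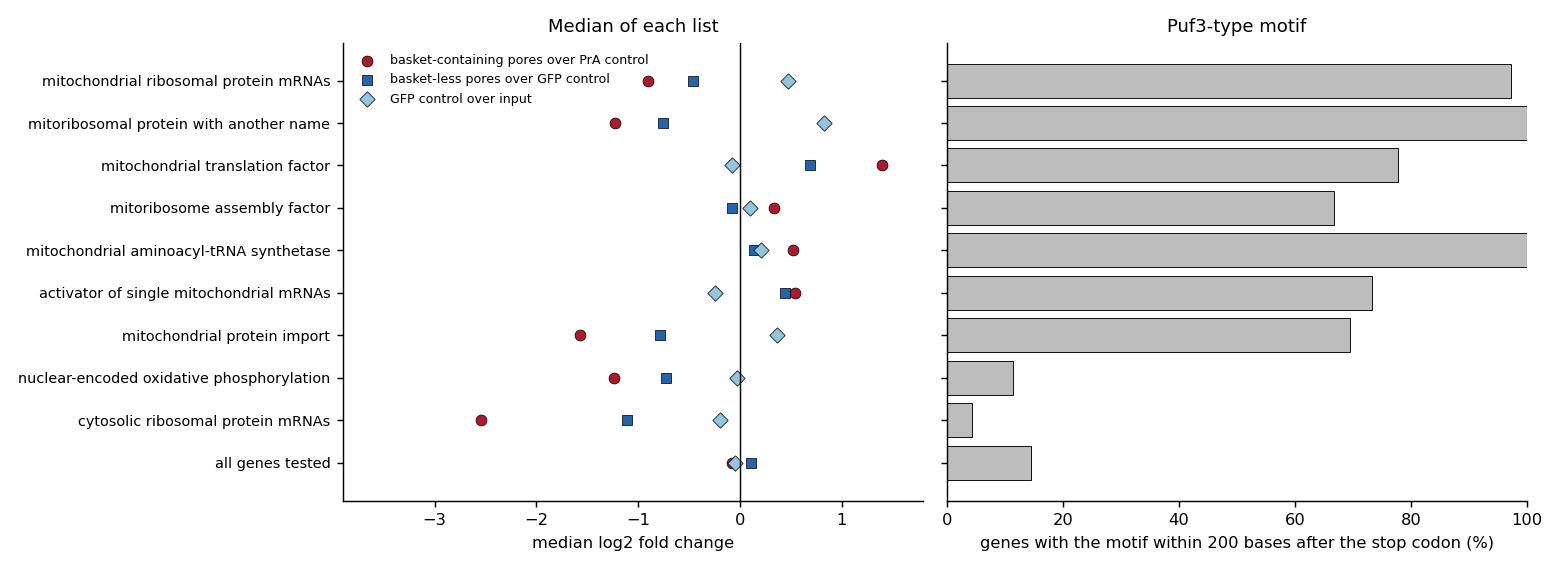
Left, median log2 fold change of each list in basket-containing pores over the PrA control, basket-less pores over the GFP control and the GFP control over the input; right, percent of each list's genes with the Puf3-type motif within 200 bases after the stop codon (bottom bar, all nuclear protein-coding genes tested). Mitochondrial ribosomal protein mRNAs (97.2% with the motif) have negative medians in both pore types and a positive one in the control, while translation factors have positive medians in the pores. The basket-less and GFP control comparisons share the GFP control libraries.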

How the data were processed

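Raw gene counts of 18 poly(A)-selected libraries, deposited by the authors as 1 column of counts per library, were used as they stand. Per the submitters' processing notes, reads were aligned with STAR to R64, counted with featureCounts and analysed with DESeq2; these notes give no versions, strand setting or rule for multiply mapped reads. Values of MRP4, MRPL19 and MRPL51, which overlap another annotated gene, are therefore less certain. Groups were taken from the sample titles. Counts were tested with edgeR 4.0.16 (R 4.3.3): filterByExpr, TMM factors, 1 quasi-likelihood fit of all 6 groups, 11 contrasts, two-sided, Benjamini-Hochberg over 6429 genes, called at an adjusted p below 0.05. The fit was also run on simulated counts in which most genes were unchanged. In these data most genes were called in the comparisons of pores with controls, so that run does not check the calls given here. The log2 fold changes given here are edgeR's and the standard error is the log2 fold change over the root of F.

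Names, coding lengths and coordinates came from RefSeq's annotation of R64, the build of the counts; 6047 of 7127 features matched by systematic name. Named genes were, per comparison, the 4 highest and 4 lowest members called, plus 12 members named for their role in the comparisons of pores with controls; others are members of a count. From each pathway list the genes with the 2 smallest adjusted p in each direction could be named. The members and lists were chosen with earlier results of these data known. The 11 comparisons were also computed with DESeq2 1.42.0, other scalings and filters, and without each library.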

Additional observations from a re-analysis of the deposited data

Results flagged for a closer look

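The differences between pore types in their change over the matrix control were tested as 1 contrast in edgeR, and these results were set aside because that test called them. It called 48 members below 0 and 10 above 0, beside 39.5% and 36.6% of all genes. Of all genes in the members' length ranges, 51.2%, 60.6% and 42.2% were below 0, from short to long. RSM27 (-1.75), MRPL49 (-1.52), MRP1 (-1.38) and MRPL3 (-1.34) were the lowest members. MRP20 (0.95), MRPL35 (0.52), MRP8 (0.44) and MRPL1 (0.42) were the highest. MRPL35 is the least certain of them: its PrA control libraries had 60.7, 57.6 and 78.3 CPM and its GFP control libraries 82.8, 91.7 and 72.3 CPM. Without basket-containing replicate 3 the contrast called 39 members below 0 and 14 above.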

How the results depend on the processing

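The 118 values of named members were recomputed under 8 other settings and without each of 18 libraries in turn, which gave 1700 values. Of these, 1680 kept their direction and call, 12 kept the direction and lost the call, 8 gained a call and 0 changed sign. The members' medians moved with the scaling because the median of all genes moved. With upper-quartile factors the median of all genes was -0.41 for basket-containing pores over the PrA control (TMM: -0.07), -0.16 for basket-less pores over the GFP control (0.11) and -0.18 for all NPCs over the GFP control (0.11), and 39.3%, 41.3% and 42.1% of all calls were higher there, against 48.5%, 57% and 55.5% with TMM. The members' median minus that of all genes was -0.83, -0.57 and -0.75 in these comparisons under TMM, DESeq2 and upper-quartile scaling alike. A change of scaling shifts all genes by nearly the same amount, so this sameness was fixed in advance and is no check of the result. Comparisons are named below by pore type and control.

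With upper-quartile factors 5 members were higher in basket-containing pores over PrA control (median -1.24), 8 in all NPCs over GFP control (-0.93), and the median of basket-less pores over GFP control was -0.73. Over input, 8 were higher in basket-containing pores (-0.83), 15 higher and 37 lower in basket-less pores (-0.16, a reversed sign), and 9 higher and 48 lower in all NPCs (-0.31). Basket-containing over basket-less pores gave -0.59, basket-less pores over all NPCs 0.16 with 0 members lower, and the difference between pore types -0.58. With DESeq2 size factors, and likewise in DESeq2's own test, the medians were -0.58 (basket-less over GFP control), -0.76 (all NPCs over GFP control), -0.018 (basket-less over input, a reversed sign), -0.15 (all NPCs over input), -0.38 (basket-containing over basket-less) and -0.36 (difference between pore types).

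Without a filter the same 6 medians were -0.57, -0.74, 0.0075, -0.11, -0.39 and -0.39, and over nuclear protein-coding genes only they were -0.59, -0.78, 0.00039, -0.14, -0.40 and -0.40, with 0.47 for PrA control over input and 0.51 for GFP control over input. A mean count of at least 50 gave -0.48 for basket-less pores and -0.65 for all NPCs over GFP control. Fitting only the groups compared gave -0.59, -0.77, 0.021 and -0.12 for the first 4 of those medians, 0.52 for GFP control over input, 4 members lower in PrA control than in input and 4 lower in basket-less pores than in all NPCs. The cause of these other shifts was not tested.

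Leaving out single libraries gave medians of -0.96 to -0.87 (basket-containing over PrA control), -0.49 to -0.45 (basket-less over GFP control), -0.65 to -0.61 (all NPCs over GFP control), -0.52 to -0.43 (basket-containing over input), 0.43 to 0.48 (GFP control over input), -0.51 to -0.32 (basket-containing over basket-less), 0.14 to 0.16 (basket-less over all NPCs) and -0.51 to -0.34 (difference between pore types). Members lower in PrA control than in input numbered 5 to 7, and in basket-less pores than in all NPCs 0 to 1. Pooled over all groups, the replicate numbers showed no pairing of the libraries. For 45 pairs of libraries with the same number, deviations from the group mean correlated between -0.16 and 0.28 (median -0.0023). For 90 pairs with different numbers they correlated between -0.30 and 0.23 (median 0.0066). Single pairs of groups differed. Same-numbered libraries gave 0.12, 0.098 and 0.28 for PrA control and input, and -0.047, -0.025 and -0.11 for basket-containing pores and PrA control. A fit with the replicate number as a block gave 57 members lower and 11 higher in basket-containing pores over PrA control and a median of -0.90, and changed no call of a named member. The lowest member count, 58, sets the coarsest counting error.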
